A study of Mus musculus with 24 samples.

Results

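The 84 genes described here encode the proteins of the cytosolic ribosome and their close paralogs. They were chosen by symbol from the array annotation: the Rpl and Rps genes, the stalk genes Rplp0, Rplp1 and Rplp2, and Rpsa, without the Rps6k kinases and pseudogene symbols. The arrays carry 29742 gene names in all, and the 84 genes have 194 probes of 60 bases. Of these genes, 81 were measured, meaning that a probe was well above background on at least 5 of 24 arrays; Rpl3l, Rpl10l and Rpl39l, paralogs of Rpl3, Rpl10 and Rpl39 best known from muscle (Rpl3l) and testis, passed on at most 1 array each and have no value here. The label fits the levels: 79 of the 81 genes were well above background on all 24 arrays, and on the log2 scale used here, where 0 is the array's 75th percentile, 27 had a mean level above 4 and 42 a level between 2 and 4. The highest means were those of Rpl41, Rplp2 and Rplp0, and the lowest those of Rps27l, Rps4l and Rpl7l1.

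Each ribosome joins a small subunit, which reads the messenger RNA, to a large subunit, which forms the peptide bond, and needs 1 copy of nearly every ribosomal protein. The messenger RNAs of these proteins usually begin with a run of pyrimidines, the TOP element, through which the mTOR pathway sets their translation. In blood they are abundant in lymphocytes and persist in reticulocytes, which keep ribosomes for globin synthesis after the nucleus is lost. Free ribosomal proteins that are not built into ribosomes, Rpl5 and Rpl11 above all, bind the p53 inhibitor MDM2, and Rps27l is a direct target of p53.

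Blood RNA came from male C57BL/6J mice of the genotypes Gadd45aWT and Gadd45aKO, taken by heart puncture 24 h after 0 Gy or 7 Gy of x-rays, and was hybridised to one-colour Agilent arrays. Gadd45aWT blood gave 5 arrays for each dose, and Gadd45aKO blood gave 5 unirradiated and 9 irradiated arrays. The sources used here give neither the age of the mice nor how the knockout allele was made. The labels do not tie an array to an animal, so p-values measure the spread between these arrays. The probe of the targeted gene, Gadd45a, a stress gene of the DNA damage response, read 0.65 ± 0.23 (SD, n = 5) in Gadd45aWT and 0.51 ± 0.16 (SD, n = 4) in Gadd45aKO at 0 Gy, a difference of -0.15 (SE 0.21, limma adjusted p = 0.854), and at 7 Gy it was 1.20 higher in Gadd45aKO (SE 0.18, adjusted p = 4.84e-05). Whether the probe lies in the deleted part is not known, so the probe does not check the genotype, and the arrays are called WT and KO-labelled.

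Some arrays stood apart before any comparison of ribosomal protein genes. The difference between replicates 1 and 4 of the KO-labelled 0 Gy group was within the noise of repeat spots, so they were averaged and count as 1 sample, which left n = 4 in that group. Other arrays came near that limit and were kept apart. Pairs of WT 0 Gy arrays differed by 1.39 to 1.80 times this noise, and KO-labelled 7 Gy replicates 1, 2 and 4 by 1.26 to 1.31 times. Whether such arrays are independent samples is not known. Repeat spots varied by over 10% on WT 0 Gy replicate 1 (18.2%), KO-labelled 0 Gy replicate 2 (16.2%) and KO-labelled 7 Gy replicate 3 (15.9%). Hepatocyte markers averaged 1.02 to 1.08 on WT 7 Gy replicates 3 to 5 and -2.71 and -2.70 on replicates 1 and 2, against -7.06 to -6.85 in WT at 0 Gy. KO-labelled 7 Gy replicates 6 to 9 shared slide 6, which held no other group. Signal limits the depth: 25.7% to 50.9% of probes were well above background on an array.

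On the level scale, the median over the ribosomal protein genes held steady in the WT arrays at 0 Gy and separated at 7 Gy. Single genes did not all hold steady. On WT 0 Gy replicate 1, Rps20 read -0.41 and Rps2 0.56, where the other arrays of that group read 5.14 to 5.29 and 3.30 to 3.53. The median over the 81 genes lay between 3.66 and 3.81 on the 5 WT arrays at 0 Gy. On the WT arrays at 7 Gy it was 3.62, 3.68, 2.84, 3.0 and 3.02 for replicates 1 to 5, so replicate 2 lay within the 0 Gy range, replicate 1 just under it and replicates 3 to 5 well below it. Those last 3 arrays are the ones with the high hepatocyte signal; their erythroid markers averaged -0.12 to -0.09, against 1.0 and 0.96 on replicates 1 and 2 and 1.47 to 1.74 at 0 Gy. The KO-labelled median ran from 3.44 to 3.73 without irradiation and from 3.03 to 3.60 after it. In bulk blood, fewer cells of a type and less RNA per cell cannot be told apart, and the part of these marker levels in the results below was not tested.

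**Figure D1:**
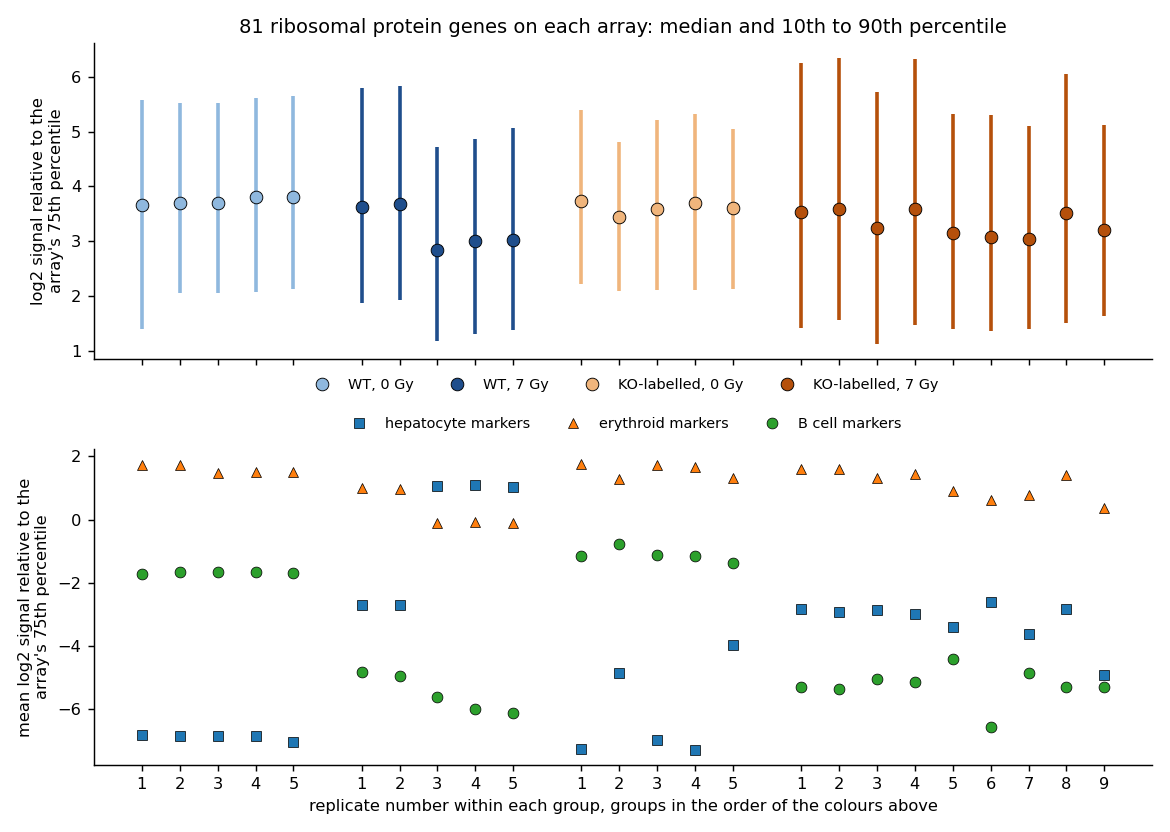
Upper panel: the median (point) and the 10th to 90th percentile (bar) over 81 ribosomal protein genes on each of 24 arrays, in log2 signal relative to the array's 75th percentile. Lower panel: the mean level of 3 marker lists on the same arrays; WT 7 Gy replicates 3 to 5 have the lowest medians, and their hepatocyte markers average 1.02 to 1.08.

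The first comparison asks how ribosomal protein genes in WT blood differ 24 h after 7 Gy. They were mostly lower: 33 of 81 passed the test downward (limma, Benjamini-Hochberg adjusted p under 0.05 over 15792 genes), where 13.3% of all genes did, and 2 passed upward, Rps27l and Rps4l, where 10.1% of all genes did. The median difference was -0.52 on the log2 scale, against -0.05 over all genes. Among the 22 genes whose 7 Gy arrays all lay below their 0 Gy arrays (16.5% of all genes), proteins of both subunits were present. The large subunit gave 18 of 45 called lower and the small subunit 15 of 33, and none of the 3 stalk genes was called. With quantile normalization 3 were called higher and 11 lower.

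The fall in WT rested largely on 3 arrays. Within slides, each of which held 1 array per group, the median difference was -0.15 and 0.01 on slides 1 and 2 and -0.81, -0.85 and -0.82 on slides 3 to 5. Without WT 7 Gy replicates 3 to 5 the median was -0.07 and 1 gene, Rpl8, was called lower. Leaving out single arrays gave 19 (without WT 7 Gy replicate 3) to 46 (without WT 7 Gy replicate 2) genes called lower. With the replicate number as a block, 48 were called lower, where 33 had been without it. Of the 33 genes called lower, 26 and 19 lay below every 0 Gy array on replicates 1 and 2, and 33 did on each of replicates 3 to 5. The same arrays chose these 33 genes, so high counts follow in part from that choice. The like count over all genes was not made. Averaging arrays that differ by up to 1.5 times the repeat-spot noise left 2 genes called lower, Rpl4 and Rpl8. This step cut WT 0 Gy to 2 units, WT 7 Gy to 3 and all groups together to 16, so fewer units also entered the fit.

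Rpl8 had the smallest adjusted p of the fall in WT. It codes for a large-subunit protein beside the site of peptide bond formation. Its level was 4.38, 4.15, 4.04, 4.14 and 4.27 on the WT arrays at 0 Gy and 3.68, 3.68, 2.97, 3.07 and 3.25 at 7 Gy. The groups did not overlap, and replicates 1 and 2 were the highest of the 7 Gy arrays. The difference was -0.87 (SE 0.15, adjusted p = 0.000127), and it stayed called in all 16 alternatives, with the largest adjusted p at 0.0492.

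Rps26, a small-subunit protein near the path of the messenger RNA, showed the largest decrease among the called genes in WT. It read 3.41, 2.95, 2.92, 2.92 and 2.88 at 0 Gy and 2.49, 2.48, 1.85, 1.86 and 1.81 at 7 Gy. All 7 Gy values lay below all 0 Gy values, with a gap between replicates 1 and 2 and the rest. The difference was -0.92 (SE 0.19, adjusted p = 0.00124) and lost its call without WT 7 Gy replicates 3 to 5 and with near-identical arrays averaged (adjusted p up to 0.201 over its 15 alternatives). Rpl22, Rpl4 and Rpl5 followed, each lower by 1.75 to 1.76 times; Rpl22, an RNA-binding large-subunit protein needed for T cell development, lost its call in 9 of 16 alternatives.

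The probes of some genes called lower in both genotypes, not all of them the largest decreases, lie in coding sequence, at the end of it, or just past it. They are shown because the array reads each gene through these bases alone, and capitals mark the in-frame stop codon where a probe holds one:
Rps26: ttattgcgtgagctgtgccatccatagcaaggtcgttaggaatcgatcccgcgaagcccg
Rpl8: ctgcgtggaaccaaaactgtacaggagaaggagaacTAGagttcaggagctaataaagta
Rpl5: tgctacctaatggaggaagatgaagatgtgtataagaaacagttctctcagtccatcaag
Rpl11: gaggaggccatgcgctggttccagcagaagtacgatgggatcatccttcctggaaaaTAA
Rpl3: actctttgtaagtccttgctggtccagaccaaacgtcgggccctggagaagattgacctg
Rpl13a: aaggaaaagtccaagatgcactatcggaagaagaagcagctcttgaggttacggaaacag
In mm9, the build of the files, these probes lie at chr10:128062300-128062359 (minus strand), chr15:76736671-76736730 (plus), chr5:108333834-108333892 (plus), chr4:135605902-135606224 (minus), chr15:79908489-79908772 (minus) and chr7:52381388-52381529 (minus). The spans of Rpl11, Rpl3 and Rpl13a are longer than the probes' 60 bases, so these probes cross an exon junction.

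The next comparison asks the same of the KO-labelled arrays. Here the genes divided: 29 of 81 were called lower, where 34.7% of all genes were, and 10 were called higher, where 12.3% were, so both shares were near those of all genes. The median difference was -0.23, against -0.26 over all genes. Genes called higher were Rpl41, Rpl35, Rplp1, Rps29, Rps27l, Rpl39, Rplp2, Rps12, Rpl38 and Rpl10. The split moved with the scaling: with the array median as the reference, 18 were higher and 21 lower; with the percentile over all probes, 21 were higher and 13 lower; with quantile normalization, 7 were higher and 42 lower. The median of all genes shifted from -0.26 to -0.01 and 0.07 under the first 2 of these, and the members' median to 0.02 and 0.10; with quantile normalization they were -0.07 and -0.48.

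Levels of Rpl13a, a large-subunit protein with a separate role in silencing inflammatory transcripts, fell most among the KO-labelled arrays. It was 3.46, 3.51, 3.56, 3.52 and 3.40 at 0 Gy, and at 7 Gy the lowest, median and highest of 9 arrays were 2.02, 2.37 and 2.46. All 9 lay below all 5, with a narrow spread on both sides. The difference was -1.17 (SE 0.18, adjusted p = 1.37e-05), and all 16 alternatives called it.

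Rpl4, which lines the tunnel through which new protein leaves the ribosome, had the smallest adjusted p among these decreases. It read 2.16, 2.43, 2.23, 2.12 and 2.31 at 0 Gy, and 0.96, 1.13 and 1.4 were the lowest, median and highest at 7 Gy. The groups were separate. It fell by 1.14 (SE 0.14, adjusted p = 1.80e-06) and was called in all 16 alternatives. Rps3, a small-subunit protein that also takes part in DNA repair, Rpl22l1 and Rps18 completed the 5 largest decreases, at -1.11, -1.03 and -1.03. Of the 29 genes called lower, between 26 and 29 lay below every 0 Gy array on each of the 9 irradiated arrays. Replicate 5 had no value for Rps27, whose spot was not uniform. These 29 genes were chosen by the same arrays, so high counts follow in part from that choice.

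Of all 81 genes, 26 had every 7 Gy array below every 0 Gy array (19.2% of all genes tested) and none the reverse (4.83%).

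The increases were uneven across the same 9 arrays. Rpl41, the smallest ribosomal protein and the member with the highest mean level, read 7.03, 5.35, 6.74, 6.88 and 6.26 at 0 Gy. At 7 Gy it was 8.51, 8.52, 8.11, 8.37, 7.76, 7.33, 7.14, 8.22 and 7.02 for replicates 1 to 9. Replicates 1 to 4 and 8 were above 8, and replicate 9 lay just under the highest 0 Gy array. The difference was 1.56 (SE 0.32, adjusted p = 0.000320). Of the 10 genes called higher, 10 lay above every 0 Gy array on each of replicates 1, 2, 3, 4 and 8. On replicates 5, 6, 7 and 9 the counts were 8, 4, 4 and 2, and replicate 5 had no value for Rpl39. These 10 genes were chosen by the same arrays, so the counts show only how the arrays differed. Erythroid markers averaged 1.32 to 1.60 on replicates 1 to 4 and 8 and 0.36 to 0.89 on the others. On the KO-labelled arrays at 0 Gy the same markers averaged 1.30 to 1.77.

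Rps29, a zinc-binding small-subunit protein, was also higher on replicates 1 to 4 and 8. It read 5.90, 4.88, 5.74, 5.75 and 5.25 on the KO-labelled arrays at 0 Gy and from 5.62 through a median of 6.85 to 7.21 at 7 Gy. Replicates 1 to 4 and 8 read 6.85 and above, and replicates 5, 6, 7 and 9 read 6.11 and below. The difference was 1.11 (SE 0.29, adjusted p = 0.00341), and the other probes of the gene gave 1.01 and 1.15. The files place all 3 Rps29 probes on chromosome 2 and all 4 Rps27 probes on chromosome 9, while RefSeq (GRCm38.p6) has Rps29 on chromosome 12 and Rps27 on chromosome 3, and where else these bases occur was not tested. Across the 194 probes, 184 carried the RefSeq chromosome of their gene, 9 another and 1 none. The Rps29 probe used and another of the gene are shown with the Rplp0 and Rps12 probes, the stop codon in capitals:
Rps29, other probe: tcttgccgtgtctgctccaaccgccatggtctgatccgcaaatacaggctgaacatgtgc
Rps29, probe used: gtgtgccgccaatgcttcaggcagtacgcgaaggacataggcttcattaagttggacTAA
Rplp0: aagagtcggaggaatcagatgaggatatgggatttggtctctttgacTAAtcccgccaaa
Rps12: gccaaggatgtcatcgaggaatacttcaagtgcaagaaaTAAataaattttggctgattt
The files place them in mm9 at chr2:172335075-172335134 (minus strand), chr2:172335021-172335079 (minus), chr5:116013404-116013463 (plus) and chr10:23504999-23505058 (minus).

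The choice of arrays changed the count of increases more than that of decreases in the KO-labelled arrays. Without the 3 arrays of over 10% repeat-spot variation, 6 genes were called higher and 30 lower. Without slide 6, 19 were called higher and 26 lower, and with the replicate number as a block 19 and 28. The normexp background correction left 4 called higher, Rpl35, Rpl41, Rplp1 and Rps29, and 25 called lower.

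**Figure D2:**
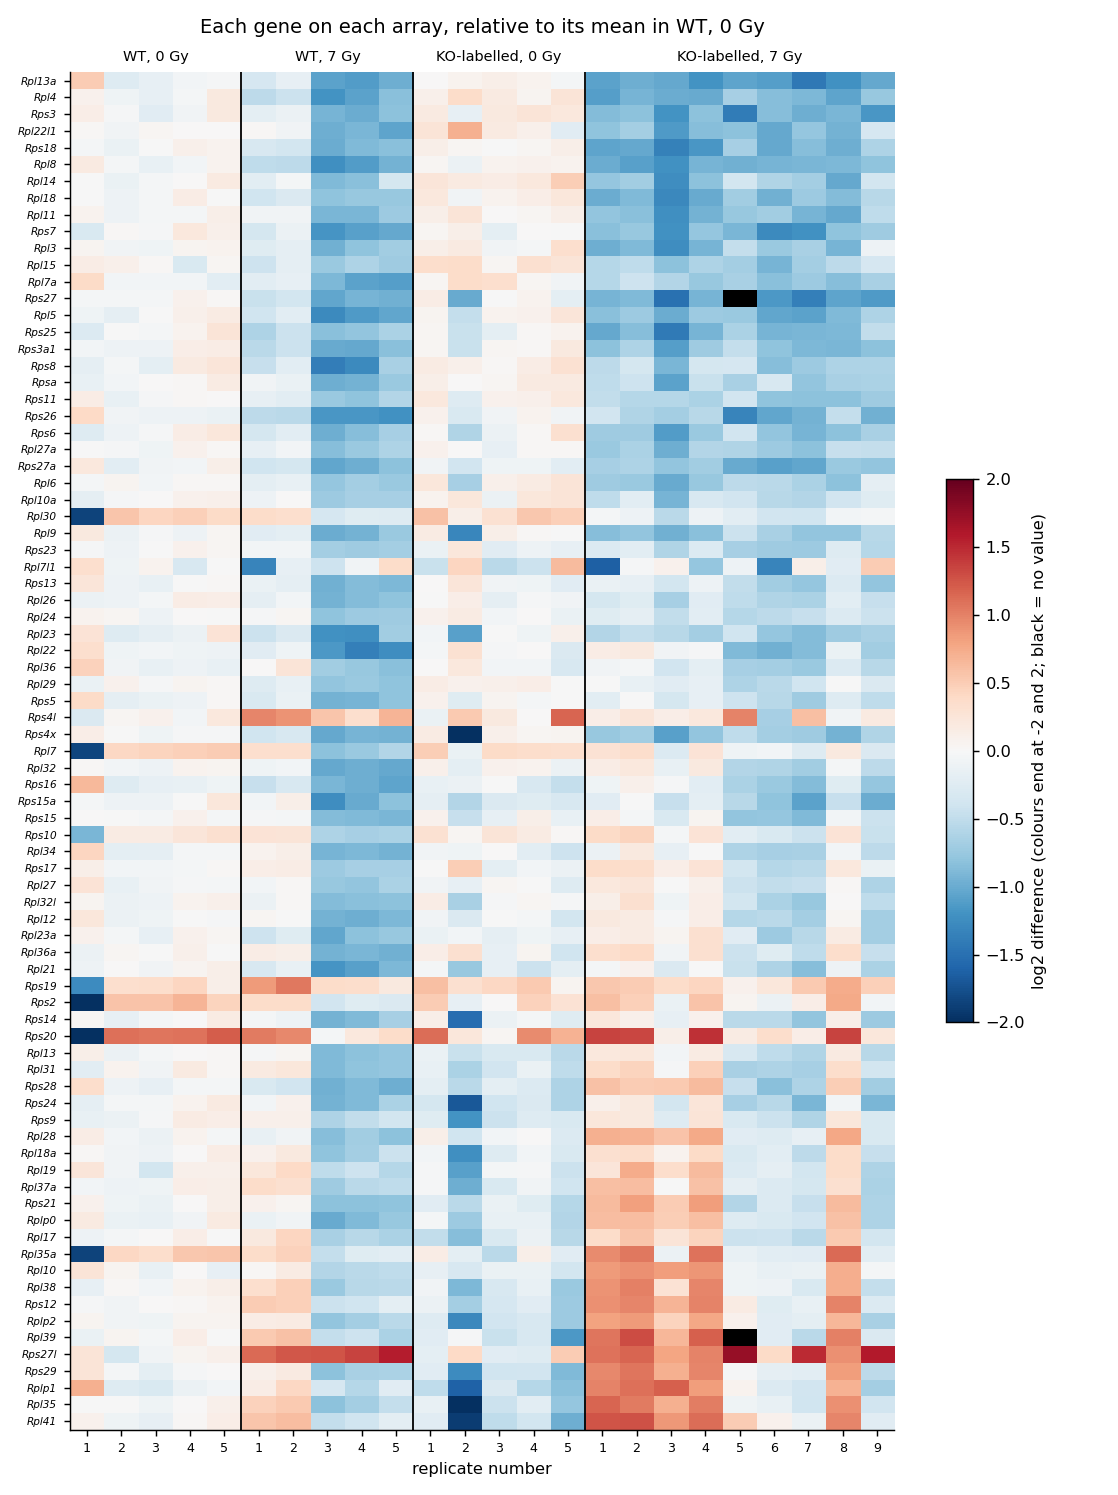
Each of 81 ribosomal protein genes (rows, ordered by the KO-labelled difference) on each of 24 arrays (columns, by group and replicate), as log2 difference from the gene's mean in WT at 0 Gy; red is higher, blue lower, black no value. Upper rows are blue on all 9 KO-labelled 7 Gy arrays, and lower rows are red on replicates 1 to 4 and 8 of that group.

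Where the increases fell was related to the level of the gene. Of the 20 members with the highest level in WT at 0 Gy (4.78 and above), 8 were called higher and 2 lower in the KO-labelled arrays, with a median of 0.50; of the 20 lowest (2.85 and below), 1 was called higher and 10 lower, with a median of -0.67. Across the 81 genes, which are not independent and share every array, level and KO-labelled difference had a Pearson correlation of 0.38 and a Spearman correlation of 0.52. Over the 13737 other genes in the same range of levels the correlations were 0.098 and 0.072. That range ran from -6.71 to 7.25, and the 2 sets were not matched within it. Of all other genes tested, 14124 had a mean level below 0, where 3 members did. Above a mean level of 4, the median KO-labelled difference was 0.45 over 27 members and 0.54 over 182 other genes. Between 2 and 4 it was -0.37 over 42 members and 0.07 over 511 others, and between 0 and 2 it was -0.89 over 9 members and 0.07 over 894 others. In WT the same bands gave -0.34 and -0.19, -0.54 and -0.41, and -0.66 and 0.01.

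**Figure D3:**
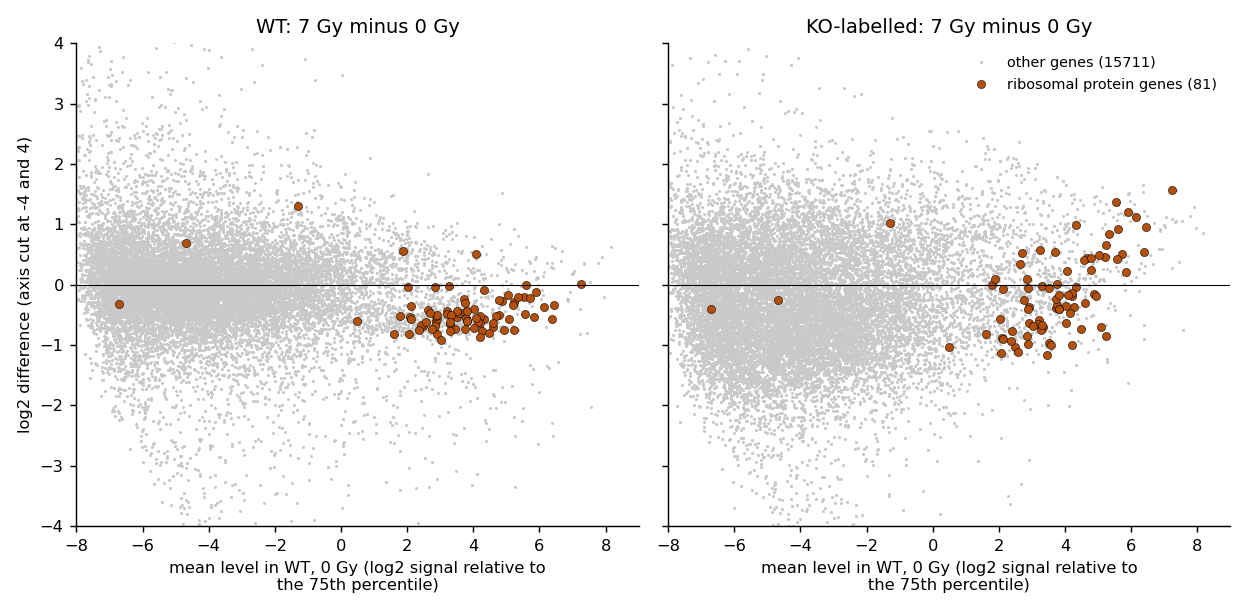
Difference between 7 Gy and 0 Gy (log2) against the mean level in WT at 0 Gy, for 81 ribosomal protein genes (orange) and 15711 other genes (grey), in WT (left) and KO-labelled arrays (right). In the right panel the members called higher lie at the high end of the level axis, apart from Rps27l.

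Between the responses, 25 genes were called in the same direction in both genotypes, 24 lower and Rps27l higher. In WT alone 9 were called lower and Rps4l higher; in the KO-labelled arrays alone 5 were called lower and 9 higher, and 32 were called in neither. Rps2 and Rps20 were among the 32, at -0.03 and 0.51 in WT, with the low WT 0 Gy replicate 1 in the fit. Fitted on its own, the other Rps2 probe was called lower in WT at -0.89 (limma adjusted p = 0.000564). The other Rps20 probe was at -0.64 and not called. A call in one genotype and not in the other is no difference between the genotypes. The test of the difference itself called 4 of 81 genes, all with the higher response in the KO-labelled arrays (3.08% of all genes were called so): Rpl41, Rps29, Rplp2 and Rplp0. None was called the other way by limma, where 12.5% of all genes were; 22 members had an unadjusted p under 0.05 in either direction. The median difference of the responses was 0.21 over the members and -0.27 over all genes. By level, it was 0.79 over the members and 0.87 over the other genes above a mean level of 4. Between 2 and 4 it was 0.15 and 0.58, between 0 and 2 it was -0.32 and 0.24, and below 0 it was -0.29 and -0.34. Above 4, 4 of 27 members and 52 of 182 other genes were called higher in this test.

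Each of these 4 calls was kept in 8 or 9 of 16 alternatives. Rpl41 had a response difference of 1.55 (SE 0.46, adjusted p = 0.0267), Rps29 of 1.48 (SE 0.43, adjusted p = 0.0241), Rplp2 of 1.30 (SE 0.39, adjusted p = 0.0293) and Rplp0 of 1.11 (SE 0.37, adjusted p = 0.0449). None of the 4 was called without WT 7 Gy replicates 3 to 5, without the 3 arrays of over 10% repeat-spot variation, without KO-labelled 0 Gy replicate 2 alone, with normexp, without a filter on dim probes, or with near-identical arrays averaged. With the replicate number as a block 23 were called higher in the KO-labelled response, without slide 6 it was 21 and without WT 7 Gy replicates 3 to 5 the calls were 4 others, in the other direction (Rpl11, Rpl13a, Rpl22l1 and Rps3); with quantile normalization 1 was called higher and 8 lower.

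**Figure D4:**
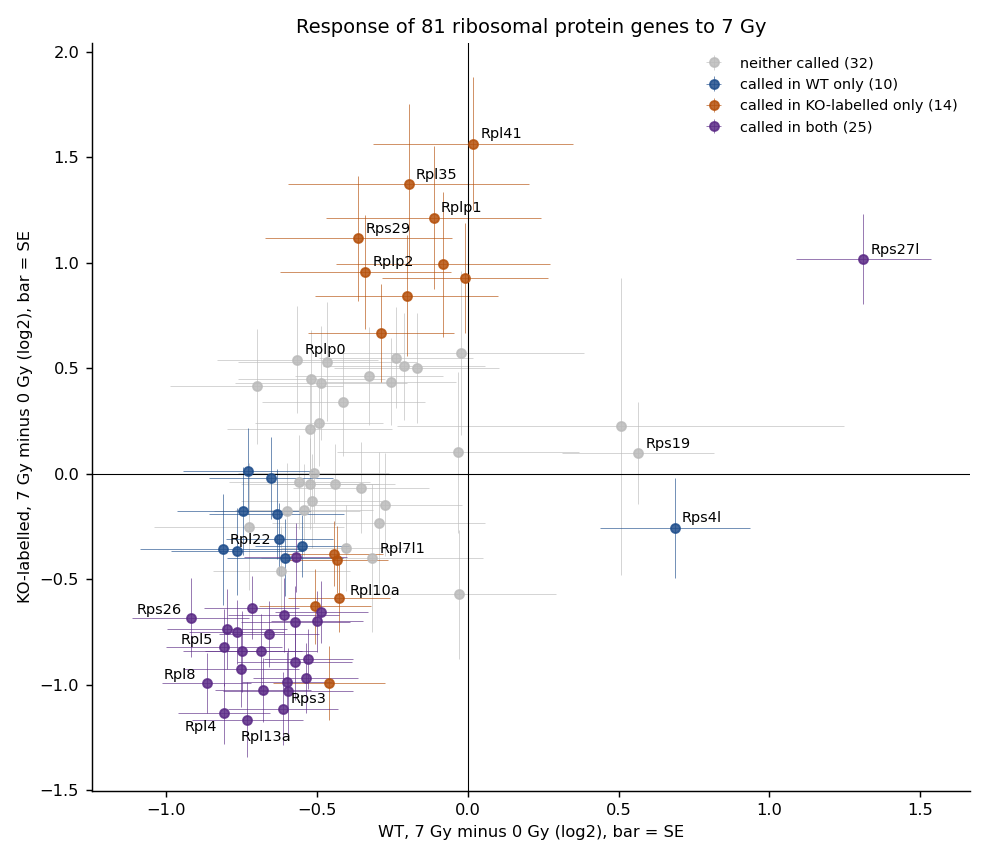
The difference between 7 Gy and 0 Gy (log2, with its SE) of 81 ribosomal protein genes in WT (horizontal axis) and in KO-labelled arrays (vertical axis), coloured by the genotypes in which the gene was called. Genes called in both gather at the lower left, and Rps27l stands alone at the upper right.

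The stalk of the large subunit, where elongation factors dock, is built from Rplp0, Rplp1 and Rplp2, all among the 5 members with the highest mean level. In the KO-labelled arrays Rplp1 rose by 1.21 (SE 0.34, adjusted p = 0.00513) and Rplp2 by 0.96 (SE 0.27, adjusted p = 0.00551), while Rplp0 was at 0.54 (SE 0.25, adjusted p = 0.0861). In WT they were at -0.11, -0.34 and -0.57, none called. Rplp0 read 6.55, 6.24, 6.24, 6.30 and 6.56 in WT at 0 Gy and 6.25, 6.31, 5.37, 5.50 and 5.63 at 7 Gy. In the KO-labelled arrays it read 6.34, 5.64, 6.23, 6.24 and 5.79 at 0 Gy and 5.77 to 7.00 at 7 Gy, with a median of 6.87. At 7 Gy, WT replicates 1 and 2 lay within the 0 Gy range and replicates 3 to 5 below it.

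At 0 Gy no ribosomal protein gene was called between the genotypes by limma, in either direction (0.209% of all genes were called higher in the KO-labelled arrays and 0.0823% lower). Unadjusted, 7 members had a p under 0.05, and the smallest adjusted p was 0.394, for Rpl41. In 11 genes the KO-labelled arrays all lay below the WT arrays (3.17% of all genes) and in none all above (6.43%). Among the 11 were Rpl41, Rpl35, Rplp2, Rps12 and Rps29, which were called higher in the KO-labelled arrays after 7 Gy. Rpl41 was 0.92 lower in the KO-labelled arrays at 0 Gy (SE 0.35), with its lowest value, 5.35, on replicate 2, the array of 16.2% repeat-spot variation. The KO-labelled increase was measured from these lower values.

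At 7 Gy, 5 genes were higher in the KO-labelled arrays than in WT, where 4.46% of all genes were: Rpl28 by 0.80 (SE 0.22, adjusted p = 0.00918), Rps29, Rplp0, Rps28 and Rpl10 by 0.71 to 0.77. None was called lower by limma, where 18.1% of all genes were; 16 members had an unadjusted p under 0.05 in either direction. No member's groups were separate at 7 Gy, where 0.817% of all genes were separate with the KO-labelled arrays higher and 5.31% with them lower. Rpl28, a large-subunit protein, read 4.53, 4.60, 3.82, 3.97 and 3.85 in WT and 4.37 to 5.45 in the KO-labelled arrays, with a median of 5.25, so the ranges overlapped through WT replicates 1 and 2. Without WT 7 Gy replicates 3 to 5, none of the 5 was called and 7 others were called lower: Rpl11, Rpl13a, Rpl22l1, Rpl27a, Rps3, Rps7 and Rps18. With near-identical arrays averaged or with normexp none was called higher, and with the replicate number as a block 23 were, and 1 lower.

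Rps27l was the 1 member called higher in both genotypes. It is a paralog of Rps27 that is transcribed under p53. The level of Rps27l was -1.03, -1.63, -1.36, -1.22 and -1.18 in WT at 0 Gy and -0.15, -0.05, -0.03, 0.07 and 0.28 at 7 Gy. All 7 Gy arrays were above all 0 Gy arrays, and replicates 1 and 2 did not stand apart from 3 to 5. The rise was 1.31, or 2.48-fold (SE 0.22, adjusted p = 0.000130). In the KO-labelled arrays it read -1.48, -0.89, -1.51, -1.55 and -0.78 at 0 Gy, and -0.90, -0.19 and 0.45 were the lowest, median and highest at 7 Gy. Replicate 6, at -0.90, lay within the 0 Gy range and the other 8 above it. The rise was 1.02, or 2.02-fold (SE 0.21, adjusted p = 0.000453), and the difference between the responses was -0.29 (SE 0.31, adjusted p = 0.539). Within slides 1 to 5 the rise was 0.88, 1.58, 1.34, 1.29 and 1.46 in WT and 1.28, 0.77, 1.01, 1.26 and 1.23 in the KO-labelled arrays. Without WT 7 Gy replicates 3 to 5 it was still called in WT; 1 of 16 alternatives lost each call, with an adjusted p of 0.0522 in WT (near-identical arrays averaged) and 0.0557 in the KO-labelled arrays (normexp).

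The Rps27l probe lies at the end of the coding sequence and just past it, in mm9 at chr9:66795486-66797176 on the plus strand, a span across an exon junction, and is shown with the stop codon in capitals because the paralog's result rests on this probe:
Rps27l: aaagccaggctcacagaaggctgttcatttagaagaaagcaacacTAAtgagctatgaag
Rps27 itself, an abundant zinc-finger protein of the small subunit, went the other way, with its probes annotated to chromosome 9 (RefSeq: chromosome 3). It read 5.19, 5.19, 5.19, 5.32 and 5.26 in WT at 0 Gy and 4.79, 4.86, 4.19, 4.29 and 4.27 at 7 Gy, with no overlap. It was 0.75 lower in WT at 7 Gy (SE 0.20, adjusted p = 0.00801) and 0.84 lower in the KO-labelled arrays (SE 0.19, adjusted p = 0.00106, without a value for 7 Gy replicate 5). In the authors' deposited table of processed values, fitted the same way, the Rps27 difference in WT was 0.28 and not called. Over 16 alternatives the WT call was kept in 10 and the KO-labelled call in 14. The WT call was lost without WT 7 Gy replicates 3 to 5, with normexp, with quantile normalization and with the mean of all kept probes. The other Rps27 probes read -0.81, -0.81 and 0.25 in WT, the last not called.

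**Figure D5:**
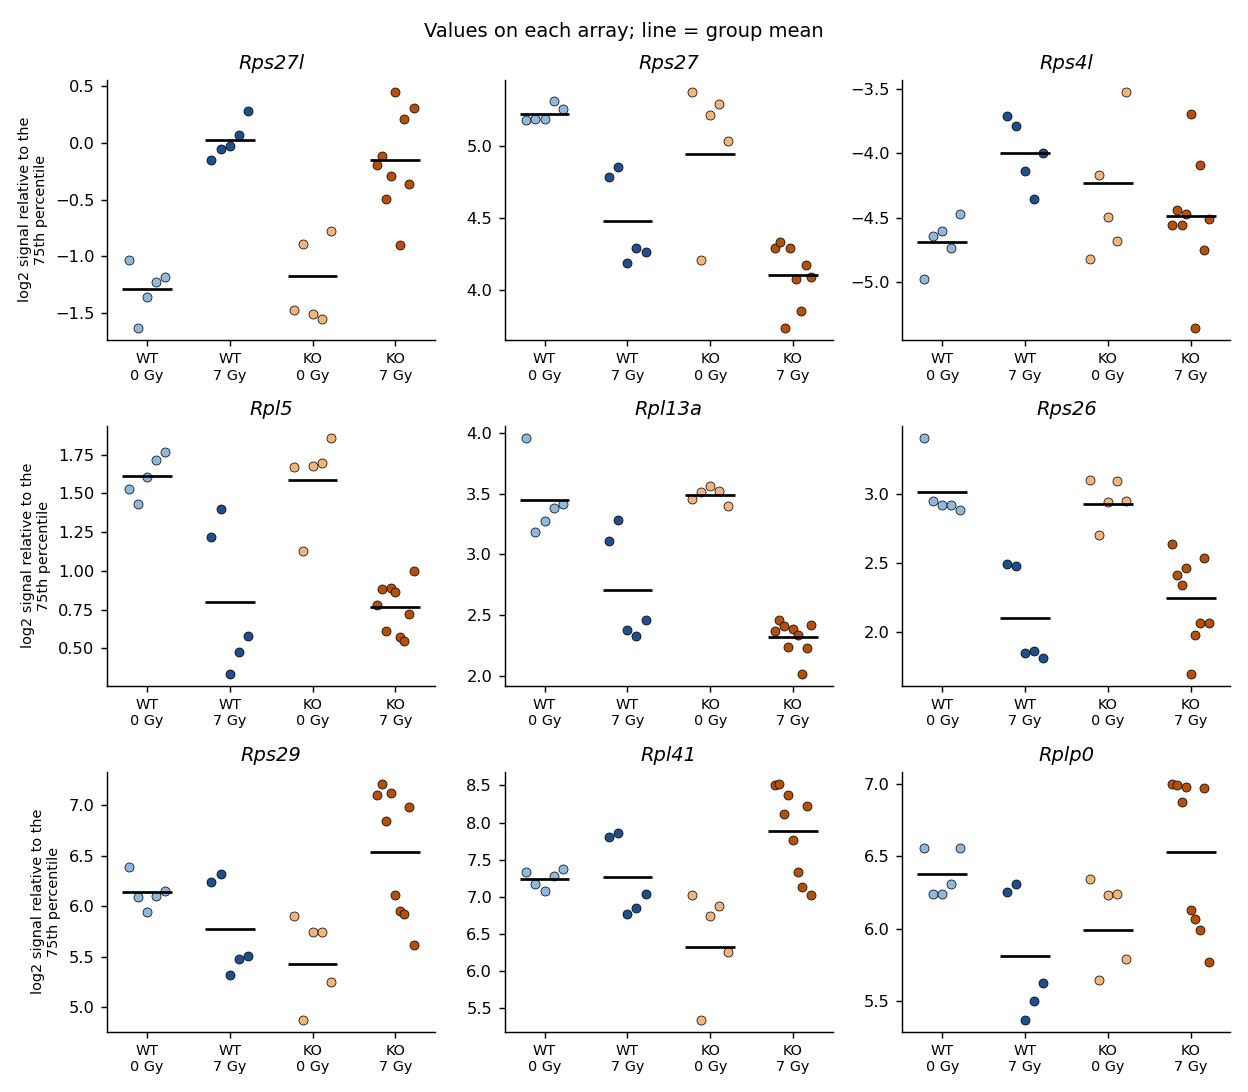
Values of 9 ribosomal protein genes on each array (points) with the group mean (line), in log2 signal relative to the array's 75th percentile; the vertical axes differ between panels and do not start at 0. Rps27l is higher at 7 Gy in both genotypes, Rps27, Rpl5, Rpl13a and Rps26 are lower, and Rps29, Rpl41 and Rplp0 split into high and low arrays at 7 Gy.

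Other paralogs did not move as Rps27l did. Rps4l, the paralog of the X-linked Rps4x, was called higher in WT, at 0.69 (SE 0.25, adjusted p = 0.0495), and lost that call in 6 of 14 alternatives. In the KO-labelled arrays it was at -0.26 (SE 0.24, adjusted p = 0.397). Rps4l was dim for a member, with a mean level of -4.40, at percentile 48.4 among the genes. Rps4x was at -0.73 in WT and -0.25 in the KO-labelled arrays, not called in either, and at 0 Gy its KO-labelled replicate 2 read 0.48 where the other arrays of that group read 2.81 to 2.93. Without the 3 arrays of over 10% repeat-spot variation, Rps4x was called lower in both, at -0.69 in WT and -0.80 in the KO-labelled arrays, and its other probe was called lower in both, at -0.68 and -0.84. Rpl22l1, which can replace Rpl22 in the ribosome, was lower in both: by 1.03 in the KO-labelled arrays (SE 0.20, adjusted p = 0.000269) and by 0.60 in WT (SE 0.21, adjusted p = 0.0471). Rpl22 was at -0.81 in WT (SE 0.27, adjusted p = 0.0345) and -0.36 in the KO-labelled arrays (adjusted p = 0.274). The other Rpl22 probe, at a mean level of -4.70, was called lower in both when fitted on its own. It was at -0.86 in WT and -1.13 in the KO-labelled arrays (limma adjusted p = 0.0445 and 0.00259). With the probes used, the WT calls of Rpl22l1 and Rpl22 were lost without WT 7 Gy replicates 3 to 5. Rpl7l1, a nucleolar paralog of Rpl7, was well above background on 2 unirradiated and no irradiated WT arrays and on 3 unirradiated and 2 irradiated KO-labelled arrays, so no fold is given for it. Rpl7 itself was at -0.30 and -0.23 and not called. Its WT value moved to -0.755 without the 3 arrays of over 10% repeat-spot variation, 1 of the 2 of 16 alternatives in which it was called, and of these arrays WT 0 Gy replicate 1 read 1.90 where the nearest of that group read 4.15. Its other 3 probes, each fitted on its own, were called lower in WT at -0.70, -0.88 and -0.78 and not called in the KO-labelled arrays.

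A list of proteins known to bind MDM2 was set by hand, and members outside it were not checked for such binding. Most transcripts of the listed proteins were called lower. Of 8 such genes, Rpl5, Rpl11, Rpl23, Rpl26, Rps3, Rps7 and Rps27a were called lower in WT and Rps27l higher; in the KO-labelled arrays 6 were called lower, all but Rpl23, which was at -0.37 (adjusted p = 0.154), and the call of Rpl26 there was lost in 11 of 15 alternatives. Both other kept probes of Rpl23, each fitted on its own, were called lower in the KO-labelled arrays, at -0.64 and -1.26 (limma adjusted p = 0.0013 and 0.000174). Of all 81 members, 33 and 29 were called lower, and of all genes 13.3% and 34.7%. Rpl5 read 1.53, 1.43, 1.60, 1.72 and 1.77 in WT at 0 Gy and 1.22, 1.40, 0.33, 0.48 and 0.58 at 7 Gy. The groups were separate by a small margin, since replicate 2 at 7 Gy came close to the lowest 0 Gy array. The WT difference was -0.81 (SE 0.19, adjusted p = 0.00327), and the KO-labelled difference was -0.82 (SE 0.18, adjusted p = 0.000767). Rpl11 was at -0.54 in WT (SE 0.17, adjusted p = 0.0278) and -0.97 in the KO-labelled arrays (SE 0.17, adjusted p = 5.97e-05). The WT calls of these 7 genes were all lost without WT 7 Gy replicates 3 to 5. Of 8 measured genes on the list of p53 regulators tied to free ribosomal proteins, 2 were lower in WT, Ppan at -0.64 (adjusted p = 0.0481) and Pml at -0.59 (adjusted p = 0.0291), and 3 were higher: Mdm2, the p53 inhibitor and target, by 1.08 (SE 0.19, adjusted p = 0.000177), Mdm4, its partner, by 1.61 (SE 0.49, adjusted p = 0.0187), and Cdkn2a, which had no WT array well above background at 0 Gy and is given no fold. In the KO-labelled arrays 4 were lower, led by Ppan at -1.33, Trp53 at -1.28 and Pml at -1.14, and Mdm2 was higher by 0.45 (adjusted p = 0.0436).

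Among other named members, Rps6, the substrate of the mTOR-driven S6 kinases, was lower by 0.61 in WT (SE 0.18, adjusted p = 0.0184) and by 0.67 in the KO-labelled arrays (SE 0.18, adjusted p = 0.00309). Rpsa, which also serves as a laminin receptor, was lower by 0.57 (adjusted p = 0.0235) and 0.70 (adjusted p = 0.00176). Its WT call was lost in 8 of 16 alternatives, its WT difference was 0.23 in the authors' deposited values, and its other 2 kept probes read -0.05 and 0.21 in WT. Rpl3, at the centre of peptide bond formation, was lower by 0.57 (adjusted p = 0.0312) and 0.89 (adjusted p = 0.000345). Rps19, the gene most often mutated in Diamond-Blackfan anaemia, was at 0.56 in WT (SE 0.25, adjusted p = 0.117) and 0.10 in the KO-labelled arrays (adjusted p = 0.766); WT 0 Gy replicate 1 read 0.62 where the others of that group began at 1.99. With the probe used, Rpl10a was called lower in the KO-labelled arrays alone, at -0.59 (SE 0.16, adjusted p = 0.00415), and was at -0.43 in WT (adjusted p = 0.0720). The other Rpl10a probe, fitted on its own, was called lower in both, at -0.51 in WT and -0.48 in the KO-labelled arrays (limma adjusted p = 0.0178 and 0.0103). Rpl39, a small protein of the exit tunnel, was higher by 0.99 in the KO-labelled arrays (SE 0.34, adjusted p = 0.0214, without a value for 7 Gy replicate 5) and at -0.08 in WT.

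Probes of the same gene were compared with each other. Of 81 genes, 60 had more than 1 kept probe. All probes had the same sign in 53 of the 60 in WT and in 49 in the KO-labelled arrays, and no gene had probes called in opposite directions. The 103 further probes differed from the probe used by a median of 0.09 in WT and 0.16 in the KO-labelled arrays, and across these probes, which share every array, their differences correlated with those of the probe used with a Pearson r of 0.22 in WT and 0.84 in the KO-labelled arrays.

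Lists of genes that build and serve ribosomes were read against all genes, of which 13.3% were called lower and 10.1% higher in WT and 34.7% lower and 12.3% higher in the KO-labelled arrays. Of 38 measured ribosome biogenesis factors, 18 were called lower in WT by limma (median -0.69) and 36 lower and 1 higher in the KO-labelled arrays (median -1.31). Rrs1, needed for the large subunit, was at -1.94 and Nolc1, a nucleolar chaperone, at -1.77 in the KO-labelled arrays, and Tsr1 and Nob1, which mature the small subunit, at -1.09 each in WT. Of 23 translation factors and other genes with TOP messenger RNAs, 12 were lower in WT (median -0.61) and 17 lower and 2 higher in the KO-labelled arrays (median -0.65). The mean level of this list was 1.44 to 1.58 on the WT arrays at 0 Gy. At 7 Gy it was 1.28, 1.34, 0.72, 0.75 and 0.88 for WT replicates 1 to 5. Naca, of the nascent chain complex, fell by 1.38 in the KO-labelled arrays (SE 0.20, adjusted p = 7.53e-06). Of 17 genes of the mTOR pathway, 4 were lower and 2 higher in WT, with the kinase Mtor at -2.11 (SE 0.36, adjusted p = 0.000121), and 11 lower and 2 higher in the KO-labelled arrays. For comparison, 77 mitochondrial ribosomal protein genes had a median of -0.15 in WT, with 2 lower, and -0.60 in the KO-labelled arrays, with 39 lower and 2 higher.

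Cell type markers were counted in the same comparisons. Of all genes, 13.3% were called lower and 10.1% higher in WT, and 34.7% lower and 12.3% higher in the KO-labelled arrays. Of the B cell markers, 13 of 13 measured were called lower in both genotypes: their mean level ran from -1.73 to -1.65 in WT at 0 Gy and from -6.13 to -4.82 at 7 Gy, and from -1.37 to -0.79 and from -6.58 to -4.43 in the KO-labelled arrays. T cell markers were lower in 5 of 14 in WT and 9 of 14 in the KO-labelled arrays. Of 14 erythroid markers, 6 were lower in WT, and 7 were lower and 6 higher in the KO-labelled arrays. Platelet markers were higher in 7 of 11 in WT and 10 of 11 in the KO-labelled arrays, and hepatocyte markers in 17 and 14 of 18. NK cell markers were higher in 1 of 8 in WT and lower in 5 of 8 in the KO-labelled arrays, and of 12 neutrophil markers 2 were higher and 1 lower in WT and 6 lower in the KO-labelled arrays. Between the genotypes at 7 Gy, 6 of 14 erythroid markers were higher in the KO-labelled arrays (median 0.64), while 14 of 18 hepatocyte markers (median -3.04), 9 of 12 neutrophil markers (median -1.81) and 6 of 8 NK cell markers (median -1.11) were lower. Between the genotypes at 7 Gy, 4.46% of all genes were called higher in the KO-labelled arrays and 18.1% lower. The part of these lists in the ribosomal protein results was not tested.

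Some promoters of the members share sequence features that the choice of genes did not use. RefSeq promoters (GRCm38.p6, 250 bases before to 50 after a start) were matched for 63 of the 84 symbols. CTTTCC on the sense strand within 20 bases of the start, a TOP-like run, stood in 17.5% of these genes and 2.30% of all 27025 genes with a promoter. CCGGAAG on either strand, the core of an ETS factor site, stood in 39.7% against 9.93%, AAGATGG, a YY1-like site, in 15.9% against 7.28%, and CACGTG, the E-box, in 9.52% against 8.09%. Among members called higher in the KO-labelled arrays CTTTCC stood in 2 of 8 and CCGGAAG in 6 of 8; among those called lower it was 5 of 24 and 12 of 24. A match is a string of letters, not a shown site. Members from both directions are shown from 40 bases before to 20 after the annotated start, with CTTTCC in capitals, and Rps27l with CCGGAAG in capitals:
Rpl35 (higher in KO-labelled arrays): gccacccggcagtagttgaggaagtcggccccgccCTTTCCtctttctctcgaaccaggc
Rpl38 (higher in KO-labelled arrays): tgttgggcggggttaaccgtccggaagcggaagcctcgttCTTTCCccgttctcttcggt
Rpl28 (higher in KO-labelled than in WT arrays at 7 Gy): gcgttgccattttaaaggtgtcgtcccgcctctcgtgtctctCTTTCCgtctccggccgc
Rpl13a (lower in both): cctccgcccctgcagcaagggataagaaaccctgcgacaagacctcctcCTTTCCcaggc
Rpl4 (lower in both): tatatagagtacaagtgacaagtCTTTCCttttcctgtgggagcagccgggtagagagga
Rps27 (lower in both): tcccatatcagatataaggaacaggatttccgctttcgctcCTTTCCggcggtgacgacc
Rps27l (higher in both): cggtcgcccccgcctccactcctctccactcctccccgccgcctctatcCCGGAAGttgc
In GRCm38.p6 these windows are chr2:39005112-39005171 (minus strand), chr11:114668540-114668599 (plus), chr7:4792925-4792984 (plus), chr7:45128726-45128785 (minus), chr9:64173347-64173406 (plus), chr3:90213629-90213688 (minus) and chr9:66946046-66946105 (plus).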

How the data were processed

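RNA from mouse blood was measured on 24 one-colour Agilent arrays, 1 file per sample. Spots were read with Agilent Feature Extraction 12.0.2, per the submitters' processing notes, and the processed signal, a background-corrected intensity, was used as deposited. The authors' deposited value table holds log2 values: each of its 12900 entries per array equalled the log2 processed signal plus a constant of the array, and 54 of the members are in it; it served as an alternative. The sources used here do not state how its probes were chosen.

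Control spots and 158 non-uniform spots were left out and repeat spots averaged. Each array's log2 intensity was set relative to its 75th percentile, taken over 7857 probes that every array detected well above background. A filter for 5 or more such arrays left 19651 probes, and each gene was represented by its brightest probe on average. Groups were compared with limma 3.58.1 in R 4.3.3, in 1 fit of the 4 groups, with Benjamini-Hochberg adjustment over 15792 genes. KO-labelled 0 Gy replicates 1 and 4 were averaged, which left 23 units. The 5 comparisons share groups, so their results are not independent. The fit was tested on simulated data. The number of arrays limits the precision.

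Replicates 1 to 5 of each group shared a slide of that number, per the file headers, so the numbers pair the samples by slide. Deviations from the group means correlated with a median r of 0.20 over 30 pairs of the same number (-0.23 to 0.70) and -0.03 over 120 other pairs. Alternatives covered background correction, scaling, filter, probe, batch, replicate block and left-out arrays; averaging arrays within 1.5 times the repeat-spot noise and leaving out slide 6 were chosen after seeing the data.

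The members and lists were chosen with earlier results of these data known. Genes named were the 5 largest called increases and decreases in each comparison, a set list of paralogs, stalk and MDM2-binding genes, and up to 3 called genes of each pathway list; others were named after their values were seen. Promoters and chromosomes came from RefSeq (GRCm38.p6) by symbol, and figures were drawn with matplotlib 3.10.9 in Python 3.11.15.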

Additional observations from a re-analysis of the deposited data

Results flagged for a closer look

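Among 140 groups of values of 35 named ribosomal protein genes and the 4 groups of array medians over all members, 13 held an array far from the others of its group; chance alone flags about 1 group in 20. All 13 lay on WT 0 Gy replicate 1 or KO-labelled 0 Gy replicate 2, which are among the 3 arrays with over 10% repeat-spot variation. On WT 0 Gy replicate 1, Rpl7 read 1.90 where the nearest array read 4.15, and Rps19 read 0.62 where the nearest read 1.99. On the same array Rpl22 read 3.23, Rps26 read 3.41, Rps28 read 4.93 and Rplp1 read 6.62, each above the rest of the group. Members outside the named genes were not scanned. Of these, Rps20 read -0.41, Rps2 0.56, Rpl30 0.19 and Rpl35a 1.4 on this array, each below the rest of the group. On KO-labelled 0 Gy replicate 2, Rps4x read 0.48 where the nearest array read 2.81. The same array was also lowest for Rpl23 at 3.19, Rpl35 at 3.12, Rpl5 at 1.13, Rpl7 at 3.60, Rpl8 at 4.08 and Rps3 at 2.41.

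The response to 7 Gy differed between the genotypes by limma for 4 members, each higher in the KO-labelled arrays: Rpl41 by 1.55 (adjusted p = 0.0267), Rps29 by 1.48 (adjusted p = 0.0241), Rplp2 by 1.30 (adjusted p = 0.0293) and Rplp0 by 1.11 (adjusted p = 0.0449).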

How the results depend on the processing

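In WT, 33 genes were called lower, but 14 with normexp, 11 with quantile normalization, 15 without a filter on dim probes, 2 with arrays within 1.5 times the noise averaged, 7 of 54 in the authors' value table, 72 of the single probes and 1 without WT 7 Gy replicates 3 to 5 (19 to 46 leaving out single arrays). The 2 called higher became 3 with quantile normalization, 0 with the arrays averaged, and 1 for single probes, without the dim filter, with normexp, with probes above background on all arrays, in the value table, without WT 7 Gy replicates 3 to 5 and without the noisy arrays (1 to 2 leaving out single arrays). The WT median of -0.52 was -0.22 with quantile normalization, -0.072 without replicates 3 to 5, and -0.15, 0.0099, -0.81, -0.85 and -0.82 within slides 1 to 5. With the authors' values, 3 members turned direction in WT: Rps27 to 0.28, Rps27a to 0.40 and Rpsa to 0.23. In the KO-labelled arrays, the 10 called higher became 21 with the percentile over all probes, 18 with median scaling, 20 of the single probes, 4 with normexp, 19 with the replicate block, 18 with the slide as a block, 6 without the noisy arrays and 19 without slide 6 (7 to 13 leaving out single arrays), and the 29 called lower became 13 with the percentile over all probes, 65 of the single probes and 14 in the value table (26 to 29). The median of -0.23 was 0.10 for the all-probe percentile, 0.017 for median scaling, -0.48 for quantile normalization, and 0.22 within slide 2 (-0.26 to -0.15 leaving out single arrays). For the difference of the responses, the 4 called higher became 13 with the all-probe percentile, 8 with median scaling, 1 with quantile normalization, 7 with all arrays separate and with the mean of probes, 10 of the single probes, 9 with probes above background on all arrays, 2 in the value table, 23 with the replicate block, 20 with the slide block, 21 without slide 6, and 0 with normexp, with the arrays averaged, without the dim filter, without the noisy arrays and without WT 7 Gy replicates 3 to 5 (0 to 12), and 8, 2 and 4 were called lower with quantile normalization, the replicate block and without replicates 3 to 5 (0 to 1). Its median of 0.21 was 0.55 with the all-probe percentile, -0.20 with quantile normalization, -0.21 without replicates 3 to 5, and 0.52 and 0.87 within slides 3 and 4. At 7 Gy, the 5 called higher became 12 with the all-probe percentile, 8 with median scaling, 3 both for quantile normalization and for the mean of probes, 10 of the single probes, 0 with normexp, with the arrays averaged and without replicates 3 to 5, 1 without the dim filter, 2 without the noisy arrays, 23 with the replicate block or the slide block and 19 without slide 6 (1 to 8); 9, 1, 1 and 7 were called lower with quantile normalization, the replicate block, the slide block and without replicates 3 to 5 (0 to 1). Its median of 0.19 was -0.079 with quantile normalization, 0.50 and 0.77 within slides 3 and 4 and -0.28 without replicates 3 to 5. The WT median ran from -0.63 to -0.44, that of the difference from 0.14 to 0.33 and that at 7 Gy from 0.08 to 0.30 leaving out single arrays. At 0 Gy 0 genes were called under any of these alternatives, and the median ran from -0.12 to -0.06 leaving out single arrays. The cause of these shifts was not tested beyond fewer arrays or genes entering a fit.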
